A study of Mus musculus with 4 samples.

Results

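Transcripts that came down with NONO above their lysate level in both untreated and proline-treated mouse primary hepatocytes are described here. They were chosen on log2(FPKM + 1), where FPKM is the number of reads on a transcript scaled to its length and to the total reads of the library, and where the added 1 is a pseudocount that damps ratios of low values. The control immunoprecipitate (IP) had to exceed the control input by at least 1 and by less than 4.9, and the proline IP had to exceed the proline input by at least 1. The inputs had to differ by less than 1 in either direction, with a mean of at least 2 FPKM. The rule found 239 of the 21163 listed transcripts.

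NONO is an RNA-binding protein that works in pairs with its relatives SFPQ and PSPC1. Together with the long non-coding RNA Neat1 they build paraspeckles, bodies inside the nucleus that can hold RNAs back from the cytoplasm. NONO also takes part in transcription and splicing, and in liver it has been tied to the processing of metabolic transcripts after feeding. An RNA immunoprecipitation pulls NONO out of a cell lysate with an antibody and sequences the RNA that comes with it, and the input library is made from a part of the same lysate that saw no antibody.

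The 4 libraries were an input and a NONO IP of untreated cells (control) and an input and a NONO IP of cells given proline (proline), all from cultured mouse primary hepatocytes, which are cells taken from liver. The comparison was meant to ask whether proline alters the mRNAs held in paraspeckles, with NONO used as a handle for them. No IP with a control antibody was analysed here, and the sources used here give neither the strain, age and sex of the mice nor how much proline was added and for how long. Each group was 1 library, so no test is given: each value compares libraries, not conditions, and the spread between cultures is unknown. Intervals are 95% counting intervals of an FPKM ratio and cover counting error only; PCR copies lie outside them.

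Library totals were 22188003 reads (control input), 1786928 (control IP), 20826758 (proline input) and 954824 (proline IP). The tables give Ensembl transcript identifiers without gene names, and 0 of the 21163 could be paired with a symbol through the tables at hand. The transcripts are therefore told apart by the length recovered from their FPKM values, the sets of genes behind them are not described, and the label hepatocyte could not be checked against marker genes. The most-read transcript of all, 3894 nt long, took 8.19% of the control IP reads and 17.4% of the proline IP reads. It is not among the 239, since its log2 input difference of 1.27 and its log2 control enrichment of 9.40 both lay beyond the limits. FPKM divides by all reads, so every other value in the proline IP is set against a total with more of that transcript in it.

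The background for the 239 is the 9012 transcripts whose inputs met the same 2 limits, called the comparable transcripts below. In control, 508 of them (5.64%) had an IP level at least 2-fold above the input, and in proline 361 (4.01%) did. Both held for 244, which is 48.0% of the control list and 67.6% of the proline list, and removal of the 5 above the upper limit left the 239, or 2.65% of the comparable transcripts. Since the same 4 libraries chose them, their enrichment is a description and supports nothing further.

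The shared transcripts were of modest abundance in the lysate and clearly above it in the IP. Their FPKM ran from 1.14 through a median of 6.91 to 933 in the control input, and from 6.19 through 36.0 to 3958 in the control IP. In proline they ran from 1.11 through 6.99 to 846 in the input and from 5.17 through 29.5 to 4521 in the IP. The comparable transcripts had medians of 13.3, 11.3, 12.7 and 10.3 FPKM in the control input, control IP, proline input and proline IP. The medians of the 239 thus lay below those of the comparable transcripts in both inputs and above them in both IPs. They took 1.76% of the reads of the control input and 1.76% of those of the proline input, against 15.5% of the control IP and 11.5% of the proline IP.

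On the log2 scale, their enrichment had a median of 1.94 in control (quartiles 1.4 and 3.08, range 1.01 to 4.74) and 1.74 in proline (quartiles 1.29 and 2.62, range 1.003 to 5.03). The medians over the comparable transcripts were -0.29 and -0.40. An enrichment of at least 2, which is 4-fold, was reached by 115 in control, 97 in proline and 88 in both. At least 3, or 8-fold, was reached by 67, 45 and 44, and at least 4, or 16-fold, by 19, 3 and 2. The group thus had a broad base just above 2-fold and a smaller upper part, and the upper part was thinner in proline.

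**Figure D1:**
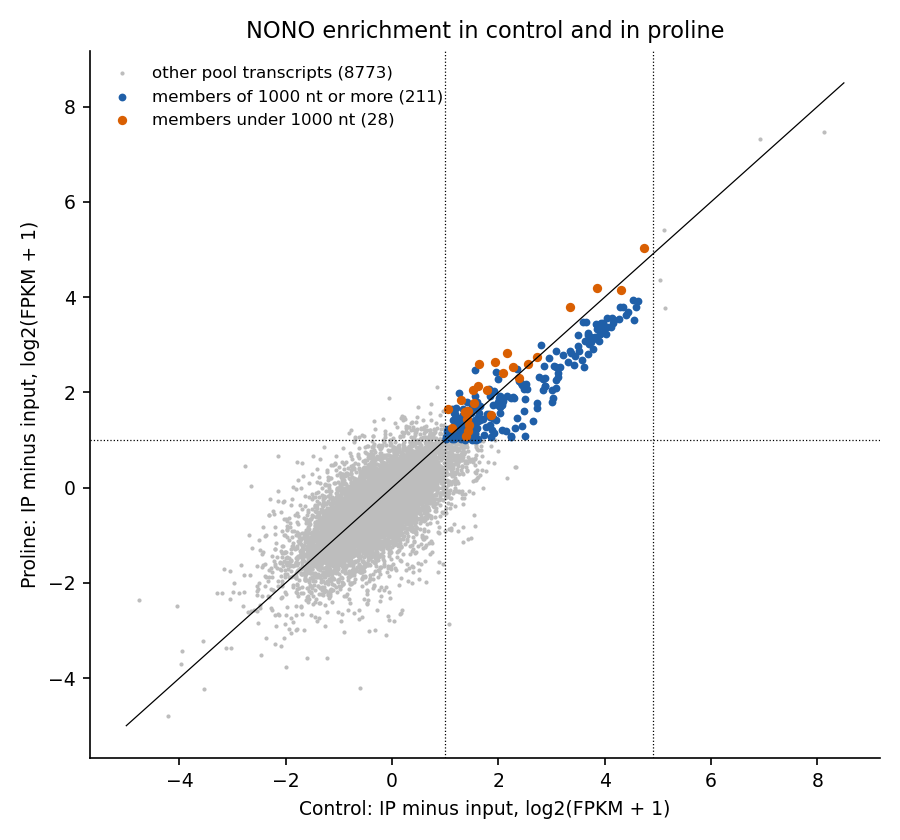
Log2 enrichment of IP over input (FPKM + 1) in control (x axis) and proline (y axis), 1 point per transcript: the 239 shared transcripts (members) in blue, or orange where under 1000 nt, over the other comparable ones (pool) in grey, with the rule's limits dotted. The members have medians of 1.94 in control and 1.74 in proline, and 167 of the 239 lie below the solid diagonal of equal enrichment.

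Read numbers limit the low end. The median transcript had 219 control IP reads and 96 proline IP reads, with ranges from 9 to 75218 and from 5 to 26921. At least 30 reads in each IP were found for 192 and at least 100 in each for 118, while 4 had fewer than 10 in at least 1 of the IPs. The counting interval of the IP over input ratio lay above 1 for all 239 in control and for 238 in proline, and above 2 in both for 166. The exception was a transcript of 420 nt with 9 and 5 IP reads, whose proline ratio of 2.32 had an interval from 0.720 to 5.81.

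Of the 10 transcripts with the highest enrichment in both conditions, ranked by the smaller of their 2 values, the first was 927 nt long. In control its level was 73.6 FPKM in the input against 1998 FPKM in the IP, and in proline 65.7 FPKM against 2178 FPKM. Both IPs were far above both inputs, with ratios of 27.1 in control (25.5 to 28.9) and 33.1 in proline (30.9 to 35.6). A transcript of 926 nt, almost the same length, stood at 122 and 1786 FPKM in control and at 109 and 2022 FPKM in proline, in the order input and IP. Its ratios were 14.7 (13.9 to 15.5) and 18.6 (17.4 to 19.8), again larger in proline. The transcript of 776 nt that ranked second was scarce, at 4.18 and 101 FPKM in control, then 3.90 and 86.4 FPKM in proline, with 140 and 64 IP reads. Its ratios of 24.1 (18.0 to 32.5) and 22.2 (15.4 to 31.9) have overlapping intervals.

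The other 7 of these 10 were 1429 to 21388 nt long, and in each the ratio was smaller in proline beyond counting error. The transcript of 5371 nt stood at 4.83 and 135 FPKM in control and at 5.20 and 94.8 FPKM in proline, with ratios of 27.9 (25.2 to 30.8) and 18.2 (16.1 to 20.6). The transcript of 4412 nt stood at 55.2 and 1388 FPKM in control and at 59.6 and 911 FPKM in proline, with ratios of 25.2 (24.4 to 26.0) and 15.3 (14.7 to 15.9). In both of these the inputs were close and the proline IP was lower than the control IP. The remaining ones, of 1429, 2783, 2848 and 5493 nt beside the 21388-nt transcript described next, had control ratios from 23.4 to 27.8 and proline ratios from 13.8 to 19.8.

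**Figure D2:**
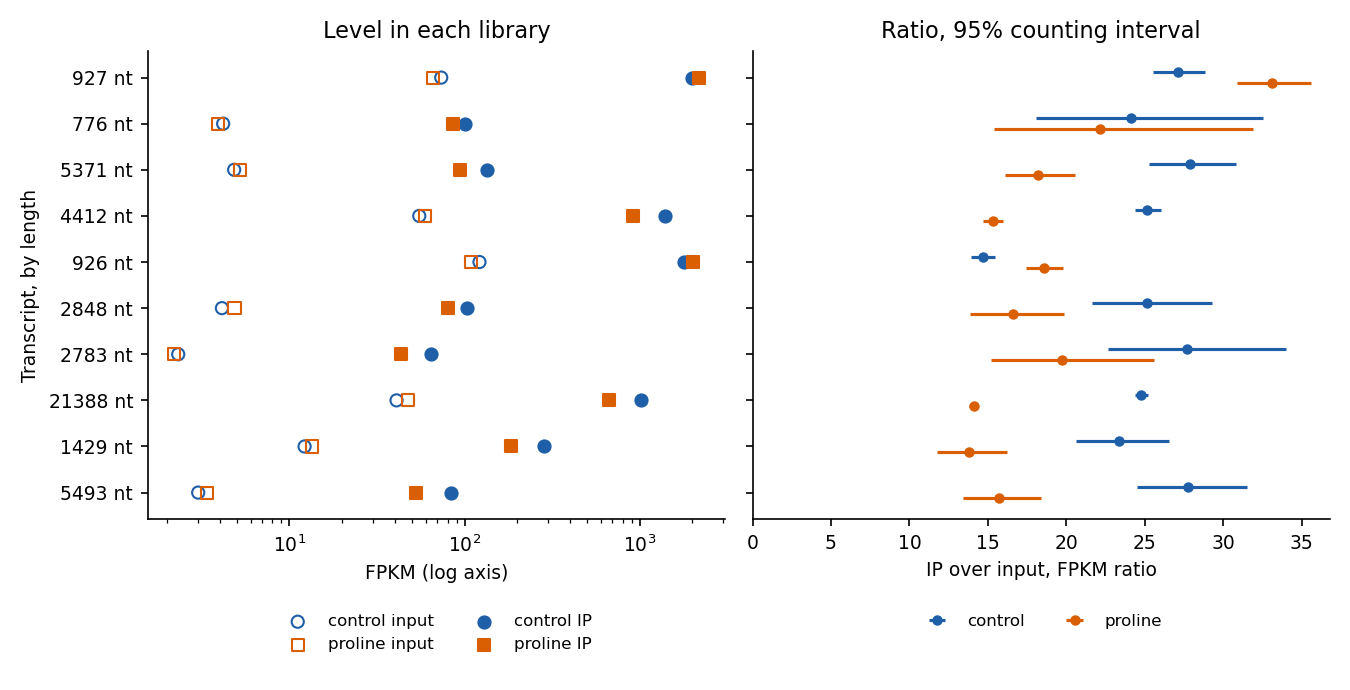
Left, FPKM on a log axis in the 4 libraries (open inputs, filled IPs) for the 10 transcripts with the highest enrichment in both conditions, each named by its length in nt; right, the ratio of IP over input with bars for its 95% counting interval. Both IPs lie above both inputs in each of the 10, and the proline IP lies above the control IP only for the transcripts of 926 and 927 nt.

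Reads were concentrated on a few shared transcripts. The 10 with the most IP reads held 60.0% of the group's control IP reads and 55.6% of its proline IP reads, and the first alone 27.2% and 24.4%. That first one, ENSMUST00000020488, has a recovered length of 123179 nt and stood at 32.6 FPKM (input) and 342 FPKM (IP) in control and at 30.5 FPKM and 229 FPKM in proline. It was present in the inputs at nearly equal levels and came down with NONO in both conditions, with 75218 and 26921 IP reads. Its ratio was 10.5 in control (10.4 to 10.6) and 7.50 in proline (7.40 to 7.61). Without this transcript the group's share was 11.3% of the control IP and 8.72% of the proline IP.

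The second by reads was ENSMUST00000233892, of 21388 nt, at 40.9 FPKM (input) and 1014 FPKM (IP) in control and at 47.7 FPKM and 672 FPKM in proline. Its ratio was 24.8 in control (24.4 to 25.2) and 14.1 in proline (13.8 to 14.4), so the ratio in proline was 0.568 of that in control (0.553 to 0.584). It is the only transcript among both the 10 strongest and the 5 longest of the group. The transcript of 17152 nt was as abundant in the lysate but less enriched, at 48.5 and 286 FPKM in control, then 48.6 and 208 FPKM in proline, with ratios of 5.90 (5.76 to 6.06) and 4.28 (4.12 to 4.44). Among these 10, the proline IP was below the control IP beyond counting error for 9, and 8 were at least 4000 nt long.

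The exception was a transcript of 925 nt, which had the highest level of the whole group. Its control input of 933 FPKM compared with 3958 FPKM in the IP, and its proline input of 846 FPKM with 4521 FPKM. Both inputs were higher than for any other shared transcript, and the proline IP was the highest of the 4 values. Its ratio was 4.24 in control (4.13 to 4.37) and 5.34 in proline (5.16 to 5.53), 1.26 times larger in proline (1.20 to 1.32).

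Short, abundant transcripts formed a part of their own. Of the 12 whose inputs averaged 100 FPKM or more, 11 were under 1000 nt, with a median length of 926.5 nt over the 12. Enrichment was higher in proline for 9 of the 12, beyond counting error for 8, and lower beyond counting error for 2. Among all 542 comparable transcripts at that input level, 62.5% had higher enrichment in proline. Beyond counting error it was higher for 171 of the 542 and lower for 112. They were read less deeply, with medians of 395 and 195 IP reads against 1544.5 and 1008.5 for the 12. A transcript of 465 nt stood at 331 and 3387 FPKM in control and at 300 and 4155 FPKM in proline, with ratios of 10.2 (9.74 to 10.8) and 13.9 (13.1 to 14.7). A transcript of 720 nt stood at 376 and 1076 FPKM in control and at 345 and 1426 FPKM in proline, with ratios of 2.86 (2.70 to 3.03) and 4.13 (3.85 to 4.42). For both, proline values were below control values in the input and above them in the IP. The exception by length, at 3119 nt, went the other way, at 167 and 809 FPKM in control, then 142 and 532 FPKM in proline. So did a transcript of 984 nt with inputs averaging 453 FPKM, whose ratio of the 2 enrichments was 0.911 (0.843 to 0.985).

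Among the short shared transcripts, 7 were 925 to 930 nt long, a window chosen after their values were seen. Not all of the 7 had inputs averaging 100 FPKM or more. They were 7 of the 10 comparable transcripts of 920 to 930 nt whose inputs averaged 50 FPKM or more. Their control input ran from 73.6 through a median of 203 to 933 FPKM and their control IP from 615 through 898 to 3958 FPKM. In proline the input ran from 65.7 through 178 to 846 FPKM and the IP from 571 through 1159 to 4521 FPKM. All 7 had higher enrichment in proline, 6 of them beyond counting error, with ratios of the 2 enrichments from 1.02 to 1.63. The direction was the same for all 10 comparable transcripts of this window and input level, 7 of them beyond counting error, and for 15 of the 24 comparable ones of the window at any input level. Their input ratios of proline over control were nearly the same, from 0.880 to 0.908. Whether these transcripts share sequence, and so share reads in the authors' counting, was not tested.

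Over the whole group the change in enrichment, which is the proline value minus the control value on the log2 scale, had a median of -0.27 (quartiles -0.58 and 0.07, range -1.41 to 0.96). Over the comparable transcripts the median was -0.10 (quartiles -0.46 and 0.25). Enrichment was lower in proline for 167 and higher for 72 (30.1%), against 42.5% higher among the comparable transcripts. The counting interval of the change lay below 1 for 100 of the 239 (41.8%) and above 1 for 18 (7.53%), where it did so for 16.0% and 10.7% of the comparable transcripts. Whether an interval holds 1 depends on depth, and the comparable transcripts had medians of 59 and 28 reads in the IPs against 219 and 96. Among those with 100 or more reads over both IPs, a limit chosen after the data were seen, it lay below 1 for 98 of 189 shared transcripts (51.9%) and above 1 for 17 (8.99%), against 22.7% and 14.6% of 4121 comparable ones. Their median IP reads were still 333 and 146 against 141 and 68. A change of at least 2-fold, taken on log2(FPKM + 1), was less common. By that measure 12 were lower and 0 higher, where 6.41% and 2.7% of the comparable transcripts were. As FPKM ratios without the added 1, the changes ran from 0.315 to 2.69, so rises above 2-fold do occur on that scale. The highest belongs to a transcript of 1469 nt with 30 and 15 IP reads. Its log2 input difference of -0.99 lay next to the lower input limit. The rule bears on all of these counts, since it holds both enrichments at 1 or more and so bounds their difference.

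The median difference was larger in the IPs than in the inputs, but the rule limits the input difference and sets no such limit on the IPs. Under the same input limit the comparable transcripts had an input median of -0.06. The log2 difference of proline over control had a median of 0.02 in the inputs, with 115 lower and 124 higher, and -0.34 in the IPs (quartiles -0.55 and -0.01, range -0.94 to 1.33), with 181 lower and 58 higher. The IP median over the comparable transcripts was -0.15. The counting interval of the proline IP over control IP ratio lay below 1 for 109 and above 1 for 18, where it did so for 15.0% and 4.57% of the comparable transcripts. With 100 or more reads over both IPs it was 57.1% and 8.47% of the 189 against 23.8% and 5.95% of the 4121. At the 2-fold threshold 0 of the 239 lay lower in the proline IP and 1 lay higher, where 4.36% and 1.46% of the comparable transcripts were. That 1 was a transcript of 1094 nt at 2.47 and 8.18 FPKM in control, then 5.66 and 22.0 FPKM in proline, on 16 and 23 IP reads. The larger share of the proline IP taken by the most-read transcript moves with these differences: with FPKM rescaled to equal totals without it and the 239 kept, the IP median was -0.30 and the median change -0.21. With the group chosen anew under that scaling, which gave 388 transcripts, they were -0.20 and -0.17. The comparable transcripts, also chosen anew under it, had medians of -0.11 and -0.04. FPKM values are relative to the total reads of each library, so they do not give the amount of RNA that came down.

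The change went with transcript length, which the rule did not use. The 239 had a median length of 3087 nt (quartiles 1788 and 4683.5) against 2872 nt for the comparable transcripts (1784.75 and 4389). Under 1000 nt, 22 of 28 had higher enrichment in proline (78.6%), against 52.9% of the comparable transcripts of that length. From 1000 to 2000 nt it was 18 of 45 (40.0%), from 2000 to 4000 nt 19 of 83 (22.9%), from 4000 to 8000 nt 10 of 63 (15.9%) and from 8000 nt upward 3 of 20 (15.0%). The comparable transcripts went the same way over a narrower span, with 47.4%, 42.5%, 37.2% and 30.9% in these classes. All 7 shared transcripts of 920 to 930 nt were among the 22 under 1000 nt. The mean input of the 28 had a median of 68.9 FPKM, against 26.7 FPKM for comparable transcripts under 1000 nt. At inputs averaging 100 FPKM or more, 62.5% of comparable transcripts had higher enrichment in proline. Whether length went with the change apart from input level or shared reads was not tested.

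The median change followed the same order. It was 0.22 under 1000 nt, -0.19 from 1000 to 2000 nt, -0.25 from 2000 to 4000 nt, -0.55 from 4000 to 8000 nt and -0.56 from 8000 nt upward. The comparable transcripts had medians of 0.05, -0.05, -0.09, -0.14 and -0.16. Across the 239 the Spearman correlation of length with the change was -0.44, and across the 9012 it was -0.08; transcripts share libraries and are not replicates, so these describe the 4 libraries only. Of the 28 short transcripts, 13 had higher enrichment in proline beyond counting error and 2 lower, where 101 and 54 of the 690 comparable transcripts of that length did. With 100 or more reads over both IPs the counts were 13 and 2 of 21 against 66 and 30 of 193. Comparing the IPs alone, the proline value was above the control value beyond counting error for 10 of the 28 and below it for 0, against 50 and 49 of the 690. Of the 7 shared transcripts of 920 to 930 nt, 6 were among the 13 and 5 among the 10.

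**Figure D3:**
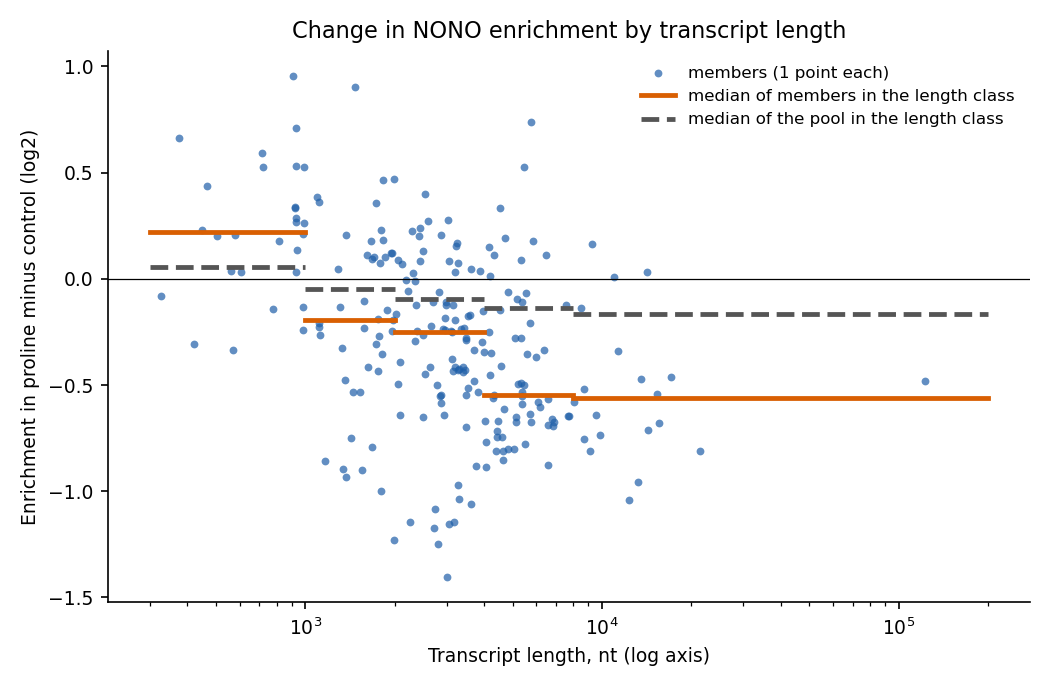
Change in log2 enrichment from control to proline (y axis) against transcript length in nt (log x axis) for the 239 shared transcripts (members), with their median per length class in orange and that of the 9012 comparable transcripts (pool) dashed. The members' median goes from 0.22 under 1000 nt to -0.56 at 8000 nt or more.

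Among the shared transcripts, long ones were also the more strongly enriched in control. The median control ratio of IP over input was 3.43 under 1000 nt, 3.58, 4.42 and 6.60 in the next classes and 11.1 from 8000 nt upward. In proline the medians were 4.15, 3.71, 3.48, 4.54 and 6.73. The classes of shared transcripts thus lay closer together in proline, where the medians were larger than in control only below 2000 nt. Medians of the comparable transcripts also rose with length, from 0.698 through 0.735, 0.803 and 0.844 to 0.919 in control. Their proline medians rose from 0.696 through 0.703, 0.739 and 0.753 to 0.810. The rule sets limits on these enrichments, so the order among the shared transcripts is a description.

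Among strongly enriched long transcripts the proline IP lay below the control IP throughout. For the 45 of at least 4000 nt with an enrichment of at least 2 in both conditions, the ratio of proline IP over control IP had a median of 0.670, quartiles of 0.647 and 0.706 and a range from 0.583 to 0.836. The counting interval lay below 1 for all 45, and the input ratio had a median of 1.07. For the 26 with an enrichment of at least 3 the median was 0.667, with a range from 0.586 to 0.788. The 5 longest, of 15297 to 123179 nt, lay between 0.663 and 0.726. The comparable transcripts of at least 4000 nt, counting the 1870 with 100 or more reads over both IPs, had a median of 0.854, and 550 of them lay below 1 beyond counting error. These counts are not matched for depth. Median reads in the control and proline IPs were 1022 and 377 for the 45, against 159.5 and 73 for the 1870.

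Strength and length went together with this ratio. For lengths from 1000 to 4000 nt the median ratio was 0.864 for the 95 with a smaller enrichment of 1 to 2, 0.719 for the 19 from 2 to 3 and 0.699 for the 14 of 3 or more. From 4000 nt upward it was 0.822, 0.670 and 0.667 for 38, 19 and 26 transcripts. Under 1000 nt it was 1.18, 0.982 and 1.11 for 18, 6 and 4 transcripts. The short transcripts thus stood near or above 1 at each strength, though the stronger classes there hold few. The enrichment that sets the strength uses the same IP values as the ratio, so the link between them is a description.

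**Figure D4:**
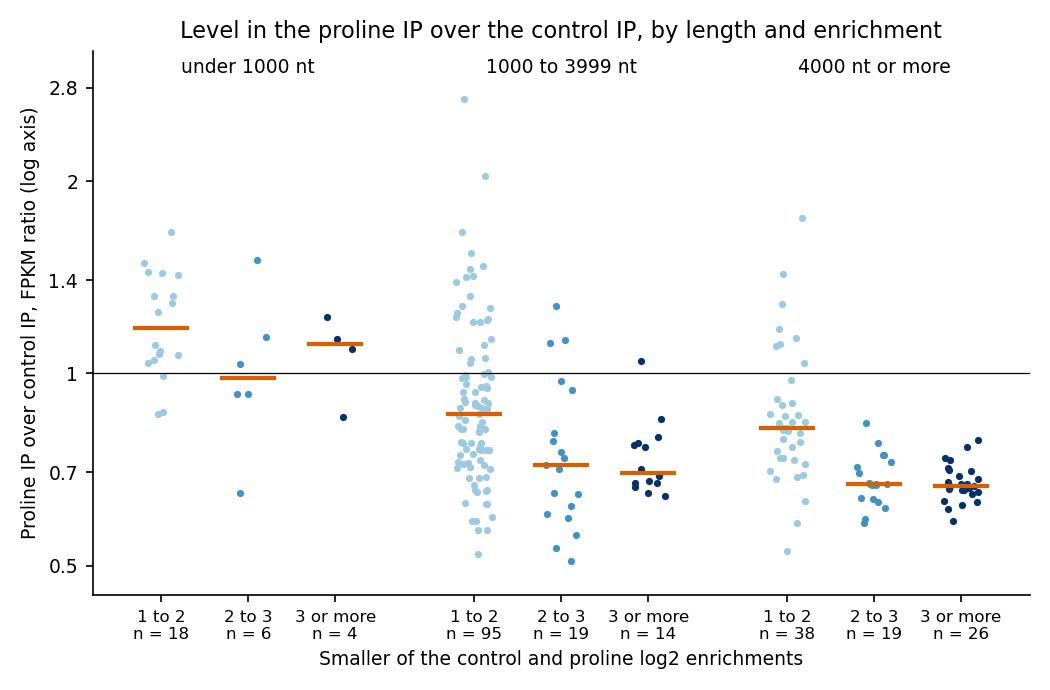
Ratio of proline IP to control IP (FPKM, log axis) for the shared transcripts, 1 point each with a median bar, by length and by class of the smaller of the 2 log2 enrichments; points are spread sideways only to be seen. The 26 long transcripts with a smaller enrichment of 3 or more lie between 0.586 and 0.788, while short ones lie on both sides of 1.

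The largest falls in enrichment came with higher inputs in proline. The transcript with the largest fall in enrichment, ENSMUST00000010195 of 3014 nt, had 2.77 FPKM (input) and 20.2 FPKM (IP) in control and 6.32 FPKM and 14.6 FPKM in proline. Its input was 2.29 times higher in proline, while its IP ratio of 0.721 had an interval that holds 1 (0.493 to 1.04). The ratio of the 2 enrichments was 0.315 (0.214 to 0.472). ENSMUST00000172753, of 2803 nt, followed at 1.88 and 17.2 FPKM in control, then 4.30 and 13.1 FPKM in proline, with a ratio of 0.333 (0.215 to 0.527). Both stood near the upper limit that the rule sets for the inputs. The next 3, of 1987, 2721 and 3163 nt, had log2 changes of -1.23, -1.17 and -1.14, and all 5 had an input at least 1.51 times higher in proline. For 3 of the 5 the IP was also lower in proline beyond counting error.

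On the other side, a transcript of 909 nt had 13.1 FPKM (input) and 43.1 FPKM (IP) in control and 9.46 FPKM and 62.2 FPKM in proline. Its input was lower in proline, its IP ratio of 1.44 had an interval that holds 1 (0.993 to 2.09), and its ratio of 2.01 between the enrichments (1.34 to 3.0) rests on 70 and 54 IP reads. The next were transcripts of 5765, 927, 374 and 714 nt with log2 changes of 0.74, 0.71, 0.66 and 0.59. The transcripts of 374 and 714 nt were lower in the proline input, at 50.4 against 29.1 FPKM and 69.9 against 39.7 FPKM, and their IP intervals hold 1. The transcript of 927 nt belongs to the 925 to 930 nt window and was abundant, at 203 and 779 FPKM in control, then 178 and 1120 FPKM in proline. Its IP ratio of proline over control was 1.44 (1.32 to 1.56), against an input ratio of 0.880. For the transcript of 5765 nt they were 1.28 (1.02 to 1.61) and 0.727, so both IPs were higher in proline beyond counting error. All 5 had an interval of the change above 1.

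High catalogue numbers were more frequent among the shared transcripts than among the comparable ones, though most of the 239 had lower numbers. Ensembl in general gives higher numbers to transcript models added later. Of the 239, 62 (25.9%) had a number of at least 200000, against 638 of the 9012 comparable transcripts (7.08%); the limit was chosen after the numbers were seen. The share was 8.71% among the 264 enriched in control alone, 3.42% among the 117 enriched in proline alone and 6.55% among the 8387 enriched in neither. It was 0 of the 30 enriched in both conditions that the input limit left out. It was also 0 of the 5 above the upper enrichment limit, which include the strongest comparable ones in control. Within the group it was 18 of 151 (11.9%) for a smaller enrichment of 1 to 2, 18 of 44 (40.9%) from 2 to 3 and 26 of 44 (59.1%) from 3 upward.

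Seen from the other side, shared transcripts made up 14.9% of the comparable ones numbered 200000 to 220000 (41 of 276) and 5.80% of those numbered higher (21 of 362), but 1.41% of those below 40000 (45 of 3183). The difference between late and earlier numbers varied with length. Among comparable transcripts of at least 4000 nt, 37 of 230 with a late number were shared (16.1%), against 46 of 2502 with an earlier number (1.84%). From 1000 to 4000 nt it was 24 of 355 (6.76%) against 104 of 5235 (1.99%), and under 1000 nt 1 of 53 (1.89%) against 27 of 637 (4.24%). The 62 had a median length of 4408 nt, and their ratio of proline IP over control IP had a median of 0.705. It lay below 1 beyond counting error for 50 of them, against 109 of all 239 and 15.0% of the comparable transcripts. These shares are not matched for length, enrichment or depth. Median IP reads were 540 and 218.5 for the 62, against 59 and 28 for the comparable transcripts. Of the 10 strongest shared transcripts, 7 had late numbers. The tables do not say which biotypes these models have.

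**Figure D5:**
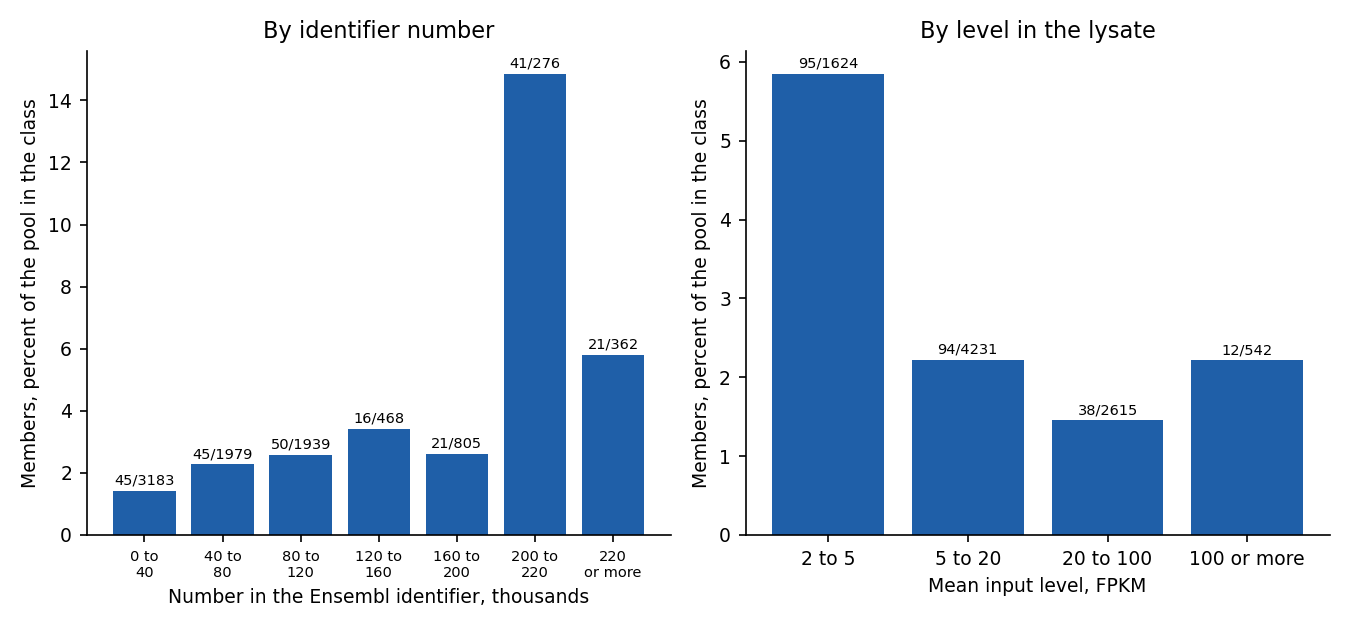
Percent of comparable transcripts (pool) that are shared NONO-enriched ones (members), by class of Ensembl transcript number on the left and of mean input FPKM on the right, with the counts above each bar. The highest bar is the number class 200000 to 220000 at 14.9%, against 2.65% over all 9012.

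Abundance in the lysate bore on how often a transcript was shared. The share was 5.85% of comparable transcripts at 2 to 5 FPKM (95 of 1624), 2.22% at 5 to 20 FPKM (94 of 4231), 1.45% at 20 to 100 FPKM (38 of 2615) and 2.21% at 100 FPKM or more (12 of 542). The input level enters both enrichments and the limits of the rule, so this order is a description. By length the share was highest at both ends, at 4.06% under 1000 nt (28 of 690) and 4.83% from 8000 nt upward (20 of 414), and between 2.20% and 2.72% in the 3 classes between.

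The transcripts enriched in only 1 condition differed from the shared ones in level and length, though the same thresholds set them apart. The 264 enriched in control alone had a median control ratio of 2.61 and a proline ratio of 1.5, on medians of 56 and 22 IP reads. The 117 enriched in proline alone had medians of 1.5 and 2.53, on 38 and 26 IP reads. With medians of 219 and 96 reads, the shared group was the better measured of the 3. Median lengths were 3087 nt for the shared group, 2723.5 nt for control alone and 1913 nt for proline alone.

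Without the limits on the inputs and on the upper enrichment, 10404 transcripts had inputs averaging 2 FPKM or more, of which 807 (7.76%) were enriched in control, 418 (4.02%) in proline and 274 in both. The input limit left out 30, of which 28 were higher and 2 lower in the proline input. These 30 were shorter, with a median of 1974 nt, and had a median log2 enrichment of 2.51 in control and 1.35 in proline. The most-read transcript is among the 30, with ratios of 697 in control and 599 in proline. Of those that met the input limit, the upper limit left out 5, with control ratios from 34.5 to 357 and proline ratios from 16.0 to 209. Of these 5, 3 were under 1000 nt, and 2 had higher enrichment in proline.

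Transcripts lay close to most limits on either side, with a wider gap at the upper enrichment limit. The nearest transcripts inside and outside the control limit of 1 had enrichments of 1.01 and 0.997, and for proline 1.003 and 0.997. At the upper limit of 4.9 the nearest inside had 4.74 and the nearest outside 5.04, and 5 lay beyond it. The input difference was 0.99 just inside and 1.02 just outside the upper limit, and -0.99 and -1.05 at the lower one, and the mean input was 2.01 and 1.95 FPKM on the 2 sides of its limit.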

How the data were processed

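RIP-seq libraries of 4 groups with 1 library each were used. The authors deposited FPKM for 21163 Ensembl transcripts per library; the genome builds GRCm38 and mm10 are named in the submitters' processing notes, and no source used here gives the aligner, counter or annotation. Read totals, transcript lengths and reads were recovered from the steps between FPKM values, as the smallest whole solution (so too small where length and reads share a factor), for all 20230 transcripts above 0, and the method was tested on simulated data. Recovered reads are 98.2% to 98.4% of the totals.

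Differences were taken on log2(FPKM + 1). Ratios are of FPKM, with 95% Clopper-Pearson intervals, or a normal approximation with 0.5 added to the reads for the change in enrichment. Named transcripts are the 10 strongest in both conditions, the 10 most read in the IPs, the 10 most abundant in the inputs, the 5 largest rises and falls with at least 30 reads in each IP, the 5 longest and shortest, and those next to each limit. Members, lists and thresholds were chosen with earlier results of these data known. The gene and marker lists could not be measured without names. Alternatives changed the pseudocount, the scaling, the input minimum, the read minimum and the depth of the control IP. Python 3.11.15, numpy 2.4.6, pandas 2.3.3, scipy 1.17.1, numba 0.67.0 and matplotlib 3.10.9 were used.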

Additional observations from a re-analysis of the deposited data

How the results depend on the processing

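The count of 239 shared transcripts went to 365 with differences centred on their median, 388 with equal FPKM totals without the most-read transcript, and 144 with inputs averaging at least 5 FPKM; under the other 6 of 9 alternatives it lay between 162 and 302, and 107 of the 239 were found under all 9. With the group chosen anew, the median change in enrichment of -0.27 was -0.10 with centred differences and -0.17 without the most-read transcript, and the median IP difference of -0.34 was -0.11 and -0.20. With the 239 kept, these were -0.10 and -0.21 for the change and -0.19 and -0.30 for the IP difference. The 12 with enrichment at least 2-fold lower in proline became 2 with a pseudocount of 5, 5 with centred differences and 6 with inputs averaging at least 5 FPKM; the 0 at least 2-fold higher became 2 with centred differences and 2 without the most-read transcript. The cause was not tested. None of these reversed. Centring moved the median change of all comparable transcripts from -0.10 to 0.07, and equal totals without the most-read transcript moved it to -0.04. With the 239 held fixed, 21 to 25 of the 28 short ones had higher enrichment in proline under the scaling and pseudocount alternatives, and 140 to 163 of the longer ones lower. The share of late identifier numbers lay between 18.3% and 33.3%. Protein-coding transcripts alone were not run, since none could be named. No paired analysis was possible because each group has 1 library. Depth limits transcripts with few IP reads: the one of 420 nt, with 9 and 5, went from 1.39 to 0.27 in control enrichment when the control IP was thinned to the proline total.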
